A study of Sus scrofa with 16 samples.

Results

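ALKAL1, FRMPD3, PACSIN1 and PI15 are 4 genes, of the 29552 named genes in the count table, with very large differences between valve cells on plastic and on gel and no established place in the myofibroblast programme. They were chosen by those differences in the group means over all 16 libraries, so the surface differences below are a description without a test. All 4 passed the filter on low counts, ALKAL1, FRMPD3 and PACSIN1 through the plastic groups, where they were high, and PI15 through the gel groups. The libraries hold polyA RNA of interstitial cells, which populate the leaflets of the aortic valve, from pigs of 5 to 6 months. Male and female cells spent 48 hours in low-serum medium (1%), on tissue culture plastic or on a poly(ethylene glycol)-norbornene gel with a modulus near 5.8 kPa. The labels describe cells on gel as quiescent fibroblasts and cells on plastic as myofibroblasts. Each sex and surface formed a group of n = 4 biological replicates, and no genotype or added agent separates them.

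ALKAL1 encodes a small secreted ligand of ALK and LTK, receptor tyrosine kinases best known from the nervous system and neural crest. PACSIN1, also called syndapin I, is a membrane-bending F-BAR protein enriched in neurons, where it links dynamin and actin nucleation to the recycling of synaptic vesicles. FRMPD3 carries a FERM and a PDZ domain, modules that tie membrane proteins to the cytoskeleton, and few functions have been assigned to it. PI15 is a secreted protein of the CAP superfamily (cysteine-rich secretory proteins, antigen 5 and pathogenesis-related proteins) that was named for its inhibition of trypsin. None of these genes is a standard marker of fibroblast activation.

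Total counts ran from 16897547 to 27436151 per library. Levels are CPM, counts per 1000000 counts of the library, with library sizes scaled by TMM factors, and 3 counts in a library, the limit that a count of 0 allows, equal 0.102 to 0.169 CPM, for counting error only. Summed markers of valve interstitial cells (9 of 9 in the table) ran from 38900 to 54800 CPM, against 8.09 to 38.0 CPM on plastic and 5.7 to 14.4 CPM on gel for 7 leukocyte markers, of which CD3E was at 0. VIM, COL1A1, COL1A2 and COL3A1 dominated the interstitial sum, with group means of 5120 to 16500 CPM each. On plastic PDGFRA, LUM and DCN were lower in both sexes and COL3A1 was higher. COL1A1 and THY1 were called higher in male cells only. Neural and Schwann cell markers (10 of 11 in the table) summed to 49.8 to 77.5 CPM on gel and 81.7 to 157 CPM on plastic, and epithelial markers to at most 0.452 CPM in any library. Their part in the levels of the 4 genes was not tested. Principal components were computed on the 500 genes of highest variance in log2 CPM. The second principal component, with 16.3% of their variance, separated male 4, female 1 and female 4, on both surfaces, from the remaining libraries. In bulk RNA, fewer cells of a type and less RNA per cell cannot be told apart.

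The ligand gene ALKAL1 (NCBI Gene 110260296, Sscrofa11.1 chromosome 4, 77673200 to 77682697) was close to the detection limit on gel and well above it on plastic. On gel it had 9, 1, 0 and 2 counts in male 1 to 4 and 0, 6, 10 and 1 counts in female 1 to 4. On plastic it had 517, 279, 181 and 429 counts in male 1 to 4 and 205, 394, 677 and 288 counts in female 1 to 4. No plastic library came near any gel library. In CPM, male cells had 0.115 ± 0.139 on gel and 15.8 ± 7.38 on plastic (mean ± SD, n = 4), and female cells 0.153 ± 0.162 and 17.4 ± 9.14. The log2 difference, plastic minus gel, was 6.93 (SE 0.70) in male and 6.77 (SE 0.67) in female cells, rank 4 and rank 3 of 14530 tested genes from the top. With so few counts on gel, its size depended on single libraries: it was 8.30 in male cells without male gel 1 and 7.55 in female cells without female gel 3.

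FRMPD3 (NCBI Gene 100620237, X chromosome, 87980635 to 88053070) was low but detected in every gel library. On gel it had 2.24, 0.452, 1.3 and 0.673 CPM in male 1 to 4 and 0.505, 1.85, 1.56 and 0.544 CPM in female 1 to 4. On plastic male 1 to 4 had 34.1, 24.6, 24.0 and 23.9 CPM and female 1 to 4 had 12, 33.7, 43.5 and 16.1 CPM. Male plastic libraries other than male 1 lay close together, while female plastic libraries spread over 3.62-fold. The log2 difference was 4.44 (SE 0.51) in male cells, from a mean of 1.17 to 26.6 CPM, and 4.56 (SE 0.51) in female cells, from 1.12 to 26.3 CPM.

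The membrane-bending gene PACSIN1 (NCBI Gene 100157037, chromosome 7, 30459851 to 30512736) was the most even of the 4 genes on plastic. There it had 8.13, 8.97, 10.7 and 9.51 CPM in male 1 to 4 and 6.71, 10.3, 9.46 and 8.61 CPM in female 1 to 4, a coefficient of variation of 11.4% and 17.5%. On gel it had 12, 18, 12 and 0 counts in male 1 to 4 and 11, 13, 12 and 3 counts in female 1 to 4. Male gel 4 and female gel 4, the lowest of their groups, were thus at or under the limit of 3 counts, and the others ran from 0.396 to 1.02 CPM. The log2 difference was 4.35 (SE 0.49) in male and 4.61 (SE 0.50) in female cells, and 5.15 in male cells by limma-voom.

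PI15 (NCBI Gene 100158209, chromosome 4, 61114490 to 61142869), the secreted CAP protein, went the other way. On gel it had 6.17, 15.6, 7.97 and 58.7 CPM in male 1 to 4 and 40.6, 7.40, 9.03 and 107 CPM in female 1 to 4. Male 4, female 1 and female 4 thus stood far above the other gel libraries. On plastic it had 6, 7, 13 and 15 counts in male 1 to 4 (0.29 to 0.634 CPM) and 88, 3, 17 and 32 counts in female 1 to 4 (0.14 to 3.91 CPM). Every gel library was above every plastic library, yet its spread within female plastic was 27.9-fold. The log2 difference was -5.58 (SE 1.12) in male cells, from a mean of 22.1 to 0.452 CPM, and -4.73 (SE 0.99) in female cells, from 40.9 to 1.54 CPM. It was -4.42 in male cells without male gel 4 and -4.94 by limma-voom. In female cells it was -3.62 without female gel 4 and -5.73 without female plastic 1. Without male 4, female 1 and female 4 on both surfaces, chosen after seeing these values, it was -4.62 in male and -4.16 in female cells.

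**Figure D1:**
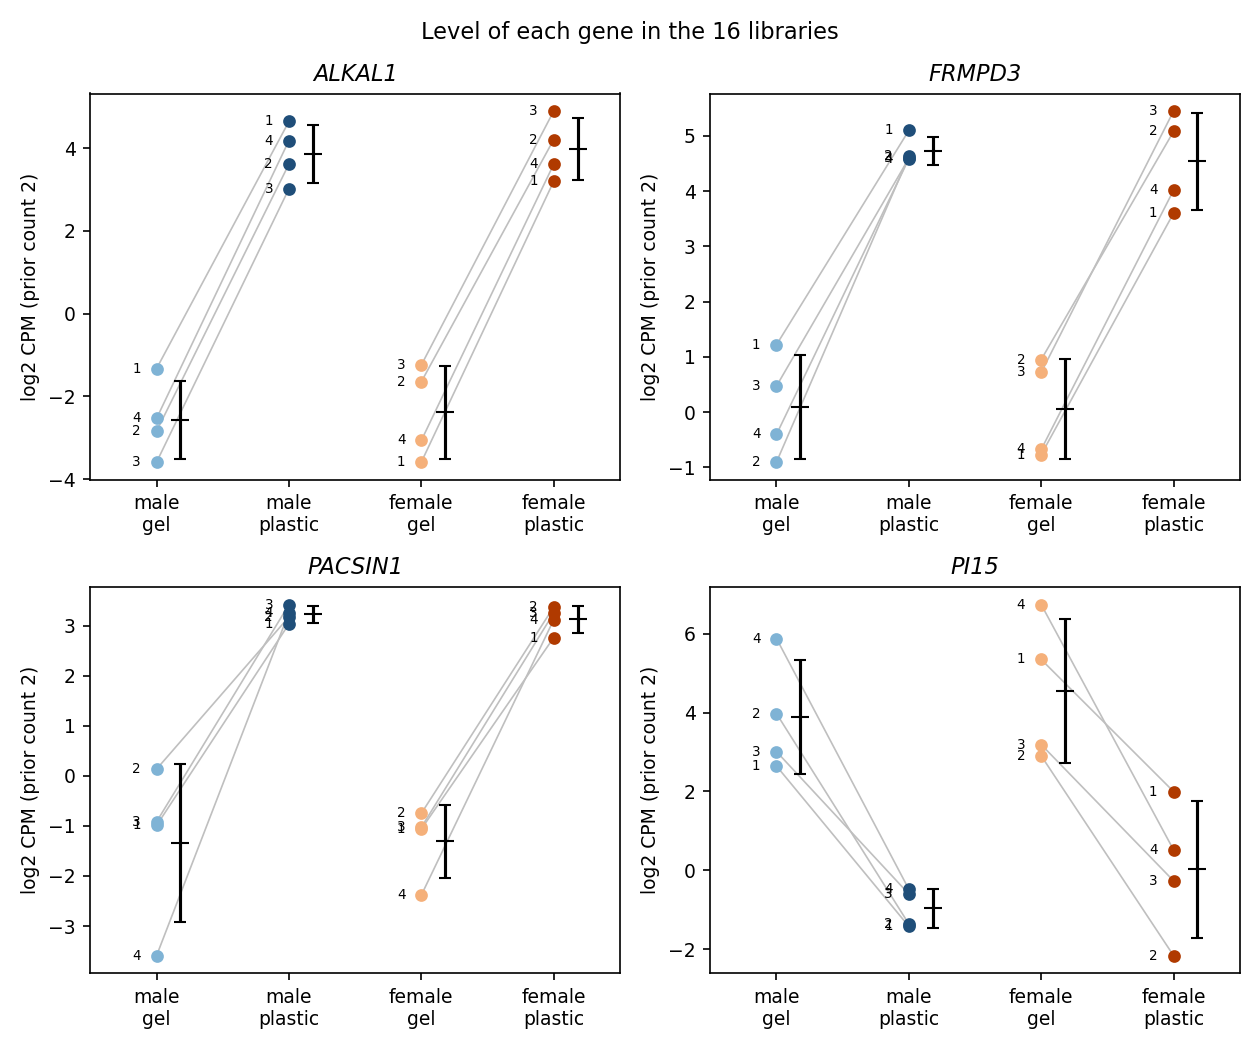
Log2 CPM (prior count 2) of ALKAL1, FRMPD3, PACSIN1 and PI15 in the 16 libraries, by group. Points are libraries with their replicate number, grey lines join libraries of the same sex and number, and black bars give the mean ± SD (n = 4). In each sex the 4 plastic libraries lie above the 4 gel libraries for ALKAL1, FRMPD3 and PACSIN1 and below them for PI15.

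In both sexes the plastic and gel libraries did not overlap for all 4 genes, as for 28.9% of tested genes in male cells and 27.7% in female cells. Since the surface differences chose these genes, nothing is read from that count. By the size of the difference in either direction, ALKAL1 ranked 5 in male and 4 in female cells, PI15 11 and 21, FRMPD3 26 and 25, and PACSIN1 32 and 23. The middle 95% of all tested genes lay between -1.59 and 1.65 in male cells and between -1.56 and 1.60 in female cells.

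**Figure D2:**
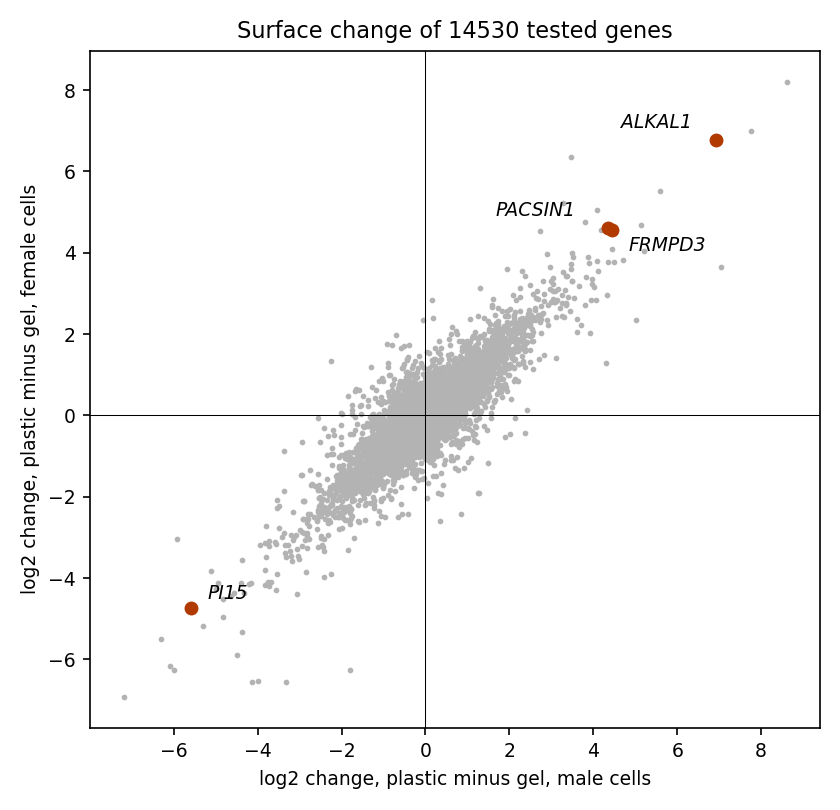
Log2 change, plastic minus gel, in male cells (x axis) against female cells (y axis) for the 14530 tested genes (grey points), with the 4 genes in colour. ALKAL1 (6.93, 6.77), FRMPD3 (4.44, 4.56) and PACSIN1 (4.35, 4.61) sit at the upper end, and PI15 (-5.58, -4.73) at the lower end.

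The sexes were then compared, which the choice of the genes did not use. None of the 4 genes passed the test between female and male cells on gel or on plastic. In edgeR's quasi-likelihood test with Benjamini-Hochberg adjustment over all tested genes, 0 of 4 were called on gel, where 0.103% of all tested genes were, and 0 of 4 on plastic, where 0.124% were. At an unadjusted p under 0.05, edgeR, DESeq2 and limma-voom each gave 0 of the 12 results of these genes, counting the test of the surface changes below. By edgeR that rule took 3.85% of all tested genes on gel and 1.95% on plastic. Precision differed between the genes. The female minus male difference on plastic was -0.02 for FRMPD3, with a 95% interval from -0.897 to 0.862 and adjusted p = 0.997 by edgeR. It was -0.09 for PACSIN1 (-0.918 to 0.742) and 0.13 for ALKAL1 (-0.82 to 1.09). On gel, where counts were low, the intervals of these 2 genes were wider, from -1.93 to 2.53 around 0.30 for ALKAL1 and from -1.55 to 0.86 around -0.34 for PACSIN1. FRMPD3 is X-linked, and its interval on gel ran from -1.29 to 1.02 around -0.13. For PI15 the intervals were wide on both surfaces, from -0.824 to 2.61 around 0.89 on gel and from -0.859 to 4.36 around 1.75 on plastic. Sex differences of several-fold in PI15, and in ALKAL1 on gel, were therefore not detectable with these replicates. Without female gel 4 the PI15 value on gel was -0.22, and without male 4, female 1 and female 4 it was -0.25. The PI15 value on plastic was 0.73 without female plastic 1 and 0.20 without those 3 cultures. By limma-voom it was 1.04, and 1.07 by limma-voom with a replicate block.

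The surface changes themselves did not differ detectably between the sexes for any of the 4 genes. The female minus male difference of the log2 change was -0.16 for ALKAL1 (95% interval -2.52 to 2.19), 0.12 for FRMPD3 (-1.33 to 1.56), 0.26 for PACSIN1 (-1.20 to 1.71) and 0.86 for PI15 (-2.27 to 3.99). The adjusted p in edgeR's quasi-likelihood test was 0.877 to 0.973. These intervals ignore the pairing of same-numbered libraries, and no paired interval was computed. With a replicate block, which uses that pairing, the differences were -0.19, 0.02, 0.20 and 0.77 (adjusted p = 0.706 to 0.981 by edgeR). In male cells the block took the SE of the surface change from 0.70 to 0.38 for ALKAL1 and from 0.51 to 0.25 for FRMPD3. It went from 1.12 to 0.56 for PI15 and from 0.49 to 0.47 for PACSIN1. Over all tested genes 0% were called in this comparison, with 633 (4.36%) at an unadjusted p under 0.05 and none called by DESeq2 or limma-voom. Over 276 results of these genes under other settings or with libraries left out, the lowest adjusted p for a sex difference or a difference of changes was 0.627.

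Removing the group means left the variation between cultures, which the choice of the genes did not use either. ALKAL1 kept the order of its cultures across surfaces. From highest to lowest the order was male 1, 4, 2, 3 on gel and on plastic, and female 3, 2, 4, 1 on gel and on plastic. Deviations from the group mean on gel and on plastic correlated over the 8 pairs of the same sex and number with Pearson's r = 0.964 (exact permutation p = 0.00347 within sexes, two-sided) and Spearman's rho = 0.929 (exact permutation p = 0.00868). This was 1 of 4 relations computed, and the Benjamini-Hochberg values over those 4, by exact permutation, were 0.0139 and 0.0347. Leaving out male 1 and female 3, the pairs farthest from the median on gel, r was 0.918 (exact permutation p = 0.0278, adjusted 0.111). Only 36 assignments then remained, so 0.0278 was the lowest p possible. Beside the higher p of the other genes, the adjusted value could not be below 0.111, so nothing is read from it. Without male 2 alone, r was 0.964 with an adjusted exact permutation p = 0.0556. The rank correlation passed the adjustment less often. Its adjusted exact permutation p was 0.102 without male 2, 0.0833 without male 4, 0.0556 without female 1 and 0.111 without female 4. Without the 2 farthest pairs rho was 0.886, and its adjusted exact permutation p of 0.111 was again the lowest possible. An r this high occurred for 0.248% of all tested genes, whose median r was 0.190. The gel side of this relation rests on 0 to 10 counts per library.

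FRMPD3, PACSIN1 and PI15 did not keep the full order of their cultures in either sex, and none of their relations passed the adjustment. FRMPD3 gave r = 0.784 (exact permutation p = 0.0503, adjusted 0.101) and rho = 0.667 (exact permutation p = 0.125), where 7.05% of tested genes reached that r. Without male 1 and female 2, the farthest pairs on gel, its r was 0.742 (exact permutation p = 0.194). PI15 gave r = 0.622 (exact permutation p = 0.175, adjusted 0.234) and rho = 0.81 (exact permutation p = 0.059), and r = 0.792 without male 4 and female 4 (exact permutation p = 0.25). PACSIN1 gave r = -0.0254 (exact permutation p = 0.931) and rho = 0.238 (exact permutation p = 0.582), and r = 0.0846 without male 4 and female 4 (exact permutation p = 0.806).

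**Figure D3:**
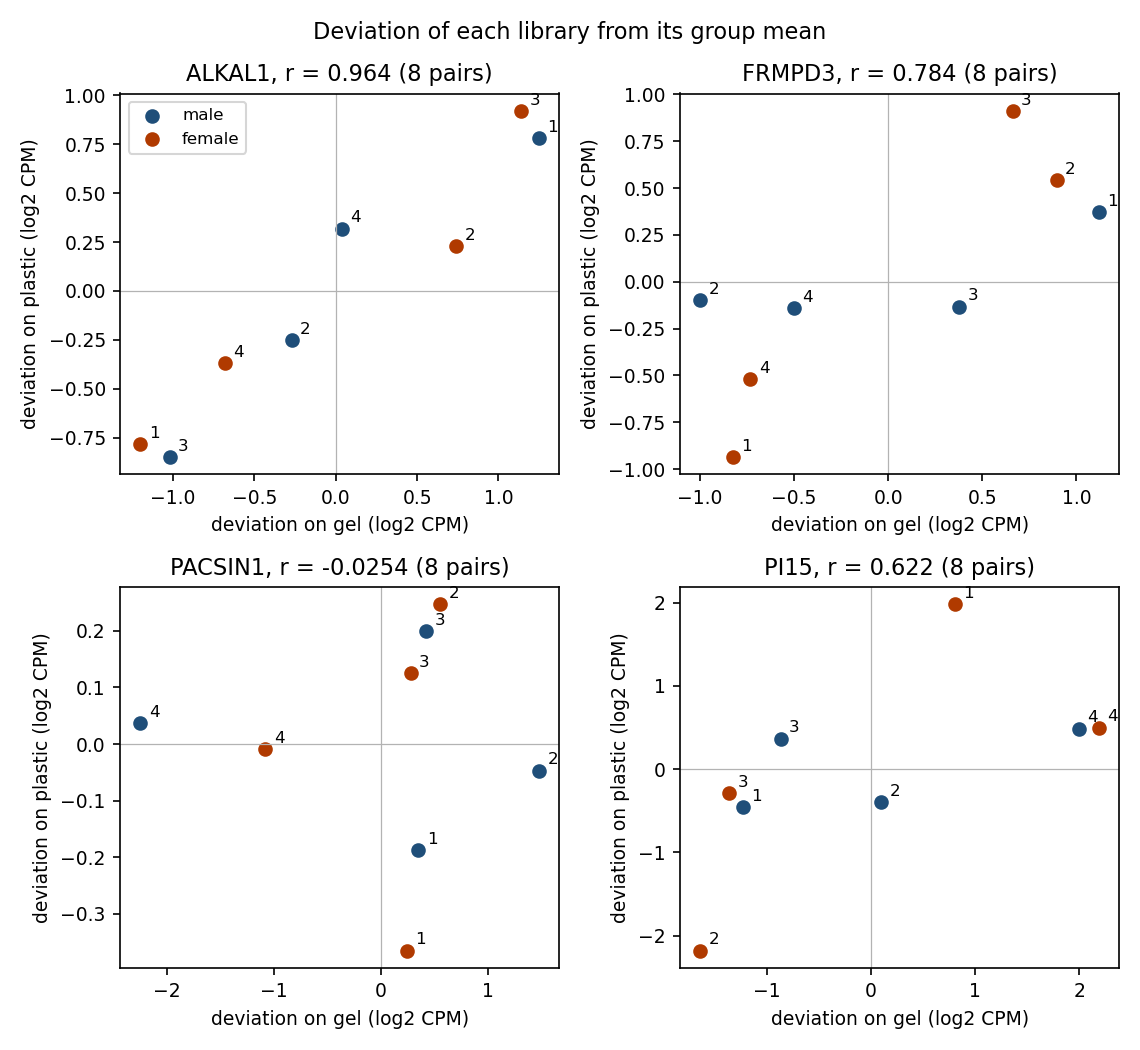
Deviation of each library from its group mean in log2 CPM, on gel (x axis) against plastic (y axis), for the 8 pairs of the same sex and replicate number. ALKAL1 falls close to a rising line (r = 0.964), while PACSIN1 shows no slope (r = -0.0254). Points are numbered by replicate and coloured by sex.

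PI15 on gel was highest in male 4, female 1 and female 4, the cultures set apart by the second principal component. The 4 genes, whose log2 CPM varied widely, are themselves among the 500 behind that component, which come from the same libraries. The match is therefore a description. On gel the cultures male 4, female 1 and female 4 had 40.6 to 107 CPM of PI15, against 6.17 to 15.6 CPM in the other 5 cultures. On plastic they had 0.634 to 3.91 CPM against 0.14 to 0.748 CPM, with overlap. FRMPD3 ran the other way, with 12 to 23.9 CPM in these 3 on plastic against 24.0 to 43.5 CPM in the other 5, and with overlap on gel. In male cells that split is only 23.9 CPM in male 4 against 24.0 in male 3 and 24.6 in male 2. Female 1 and female 4 had 12 and 16.1 CPM against 33.7 and 43.5 CPM in female 2 and female 3. PACSIN1 on gel was 0 to 0.396 CPM in the 3 and 0.408 to 1.02 CPM in the others, a gap that rests on 11 counts in female 1 and 12 in female 3. On plastic PACSIN1 overlapped, with 6.71 to 9.51 CPM against 8.13 to 10.7 CPM. ALKAL1 overlapped between them on both surfaces.

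Other markers moved with these cultures. The 10 endothelial markers summed to 240 to 271 CPM on gel in the 3 cultures against 150 to 203 CPM in the others, and to 323 to 555 CPM on plastic against 193 to 268 CPM. The genes weighed unequally in that sum. ERG was its largest term, with group means of 110 CPM on gel in both sexes and 148 (male) and 182 CPM (female) on plastic. KDR, CLDN5 and TEK stayed at or below 2.22, 2.53 and 6.31 CPM in every library. The adhesion genes PECAM1 and CDH5 were higher in the 3 cultures on both surfaces. VWF (von Willebrand factor) stayed at or below 4.17 CPM in every library and did not follow them. On both surfaces it was lowest in male 4 (0.135 CPM on gel, 0.254 on plastic) and female 4 (0.217 and 0.253). Female 1, with 3.39 and 1.69 CPM, made it overlap with the other cultures. ACTA2, TAGLN and CNN1, the contractile genes that mark activation, summed to 3550 to 3830 CPM on gel in the 3 cultures against 5810 to 8300 CPM, and to 15200 to 21900 CPM on plastic against 25700 to 29500 CPM. On plastic their muscle and pericyte markers were lower as well, 873 to 1150 CPM against 1390 to 1730 CPM, while leukocyte markers (13.1 to 38.0 against 8.09 to 13.0 CPM) and neural markers (125 to 157 against 81.7 to 109 CPM) were higher. The part of these marker genes in the levels of PI15, FRMPD3 and PACSIN1 was not tested. Across the 16 libraries, deviations of PI15 correlated with those of FRMPD3 at r = -0.80, of PACSIN1 at -0.62 and of ALKAL1 at -0.55, and those of ALKAL1 and FRMPD3 at 0.76. These are descriptions, since the genes share the same libraries and their depth.

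**Figure D4:**
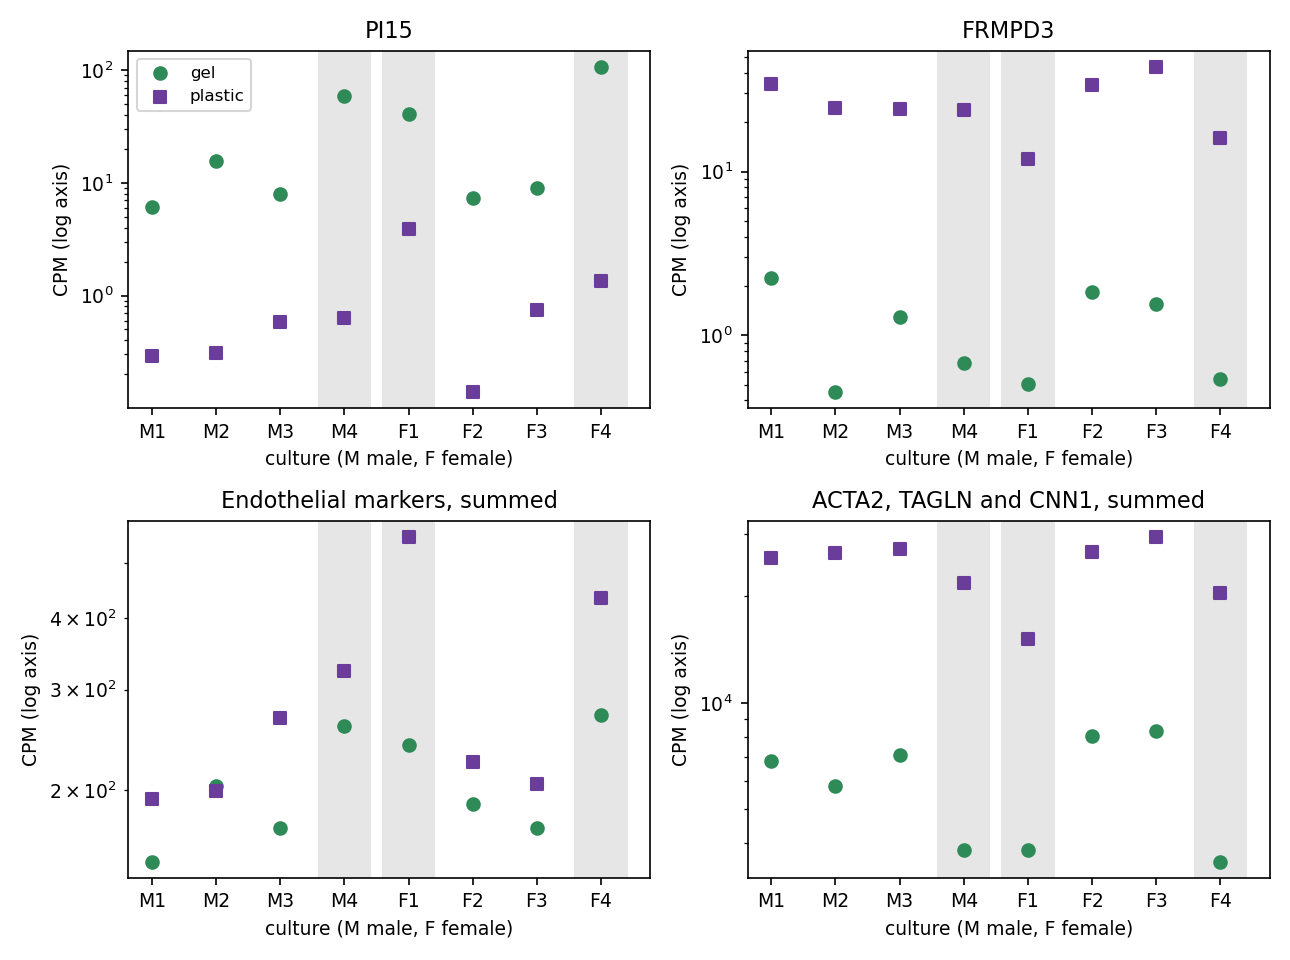
CPM on a log axis in each culture (M male, F female) on gel (circles) and plastic (squares) for PI15, FRMPD3, 10 endothelial markers summed, and ACTA2, TAGLN and CNN1 summed. Grey bands mark male 4, female 1 and female 4, where PI15 on gel reached 40.6 to 107 CPM against 6.17 to 15.6 CPM in the other cultures.

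The receptor side of ALKAL1 was sparse on both surfaces. LTK had at most 2 counts in any library and was not tested, and ALK had 0 to 16 counts. ALK did not pass the test between surfaces, with 0.78 (SE 0.63, adjusted p = 0.394 by edgeR) in male and 0.15 (SE 0.58, adjusted p = 0.879) in female cells. The paralogous ligand ALKAL2 stayed at 10 to 23 counts throughout (0.07, SE 0.32, in male and 0.40, SE 0.32, in female cells, adjusted p = 0.898 and 0.402 by edgeR). The plastic libraries with 181 to 677 counts of ALKAL1 held at most 20 counts of ALKAL2 and 16 of ALK.

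Of 20 listed ligands, receptors and adaptors of ALK and LTK signalling, 19 were tested. In male cells 3 rose and 2 fell, and in female cells 4 rose and 2 fell. That is 26.3% and 31.6% of the list, near the 25.8% and 23.9% of all tested genes, of which 12.9% rose and 12.9% fell in male cells and 12.7% and 11.3% in female cells. In both sexes 3 rose and 1 fell, where 9.24% and 7.27% of all tested genes did. The list median was 0.18 and 0.07, against -0.03 and -0.04 over all tested genes. With a replicate block 8 were called in male cells, and 3 without a filter. The insulin receptor substrate IRS2 rose from 17.9 ± 2.18 to 31.9 ± 3.08 CPM in male cells (0.84, SE 0.13) and by 0.85 (SE 0.13) in female cells. The ubiquitin ligase CBL, which ends receptor kinase signals, rose by 0.38 (SE 0.08) and 0.46 (SE 0.08). The adaptor GRB2 rose by 0.22 in male (adjusted p = 0.0377 by edgeR) and 0.27 in female cells (adjusted p = 0.013). The male GRB2 call ended with a replicate block (0.0639), without a filter (0.101), and on leaving out male gel 1, 3 or 4, any male plastic library, or female gel 2 or 3 (0.20 to 0.23, adjusted p = 0.0506 to 0.0966), and the female call without a filter (0.0529). The heparin-binding growth factor PTN (pleiotrophin) fell in male cells (-1.25, SE 0.31, adjusted p = 0.00692 by edgeR) and in female cells (-1.03, SE 0.31, adjusted p = 0.0223). The female PTN call was lost without female gel 1 (-0.92, adjusted p = 0.0598) and without female plastic 1 (-0.92, 0.0638), female plastic 2 (-0.91, 0.0675) or female plastic 3 (-1.01, 0.053).

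The closest relatives of PACSIN1 showed small differences between surfaces. PACSIN2, the widely expressed form, went from 61.0 ± 7.78 to 74.9 ± 3.44 CPM in male cells (0.30, SE 0.10, adjusted p = 0.0464 by edgeR) and did not pass in female cells (0.20, SE 0.10, adjusted p = 0.183). The muscle-enriched PACSIN3 changed by 0.35 (SE 0.12, adjusted p = 0.0349 by edgeR) in male and 0.33 (SE 0.12, adjusted p = 0.0463) in female cells. With a replicate block the female adjusted p was 0.0537 by edgeR, and without a filter both PACSIN3 calls (0.0718 and 0.108) and the PACSIN2 call (0.0796) were lost. These 3 calls were marginal. Leaving out male gel 2 or 3, any male plastic library, female gel 1, 2 or 3, or female plastic 2 ended the male PACSIN2 call (0.21 to 0.32, adjusted p = 0.0501 to 0.115). Leaving out male gel 2, 3 or 4 or male plastic 1, 2 or 4 ended the male PACSIN3 call (0.29 to 0.35, adjusted p = 0.0671 to 0.0876). Leaving out male gel 3 or 4, male plastic 1, 2, 3 or 4, any female gel library, or female plastic 2 or 3 ended the female PACSIN3 call (0.27 to 0.36, adjusted p = 0.0527 to 0.138).

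Of 28 listed genes of membrane remodelling, among them F-BAR proteins, dynamins, EHD proteins, endophilins and caveolar genes, 27 were tested. In male cells 15 rose and 3 fell (66.7% against 25.8% of all tested genes), and in female cells 10 rose and 2 fell (44.4% against 23.9%). Their median was 0.35 and 0.29, against -0.03 and -0.04 over all tested genes. In both sexes 9 of the 27 rose and 2 fell, where 9.24% and 7.27% of all tested genes did. Among the 9 was the caveolar coat gene CAVIN1, which rose from 677 to 1210 CPM in male cells (0.84, SE 0.09) and by 0.74 (SE 0.09) in female cells. The membrane-remodelling ATPase EHD4 rose by 0.91 (SE 0.11) and 0.92 (SE 0.11), the F-BAR gene FNBP1 by 1.14 (SE 0.12) and 0.96 (SE 0.12), and the lipid phosphatase SYNJ1 by 0.65 (SE 0.11) and 0.59 (SE 0.11). The 2 that fell in both sexes were DNM1, the neuronal dynamin (-1.39, SE 0.33, and -1.81, SE 0.34), and SH3GL3, an endophilin (-2.28, SE 0.57, and -1.91, SE 0.56). The female SH3GL3 call was lost without female gel 4 (-1.39, adjusted p = 0.0872 by edgeR), female plastic 2 (-1.65, 0.0609) or female plastic 3 (-1.59, 0.054).

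FRMPD3 was the FRMPD gene with a clear level in these cells. FRMPD1 had at most 2 counts in any library, FRMPD2 had 0 in all 16, and FRMPD4 had at most 13, so none of them was tested. Of 38 listed FERM-domain genes, 34 were tested, of which 11 rose and 5 fell in male cells (47.1% against 25.8% of all tested genes) and 14 rose and 3 fell in female cells (50% against 23.9%). The median was 0.27 in both sexes, against -0.03 and -0.04 over all tested genes. The membrane-skeleton gene EPB41L3 rose from 71.9 to 152 CPM in male cells (1.08, SE 0.14) and by 1.25 (SE 0.14) in female cells, and EPB41L1 by 1.00 (SE 0.12) and 0.95 (SE 0.12). MSN (moesin), which links actin to the membrane, rose by 0.71 (SE 0.11) and 0.89 (SE 0.11), and the phosphatase PTPN21 by 0.80 (SE 0.11) and 0.92 (SE 0.11). MYLIP, a ubiquitin ligase of lipoprotein receptors, fell from 24.1 to 5.68 CPM in male cells (-2.09, SE 0.32) and by 2.5 on the log2 scale in female cells, and FRMD6 fell as well (-0.74, SE 0.17, and -0.71, SE 0.17).

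Of 14 listed relatives of PI15, 12 were in the table and 5 were tested. In male cells 1 rose and 3 fell, and in female cells 0 rose and 3 fell (80% and 60% of the 5, against 25.8% and 23.9% of all tested genes). CRISPLD2, a secreted lipopolysaccharide-binding protein, fell from 29.2 ± 6.22 to 7.55 ± 2.36 CPM in male cells (-1.95, SE 0.23, adjusted p = 1.53e-05 by edgeR) and from 32.2 ± 6.19 to 6.22 ± 1.08 CPM in female cells (-2.37, SE 0.24, adjusted p = 3.08e-06). GLIPR2 fell by 0.50 and 0.55 on the log2 scale (SE 0.12 in each sex). GLIPR1 fell in male cells (-0.68, SE 0.16, adjusted p = 0.00525 by edgeR), and its female value (-0.47, SE 0.16, adjusted p = 0.0447) was 0.0613 with RLE size factors. That female call also ended on leaving out male gel 4, any male plastic library, any female gel library, or female plastic 1, 2 or 3 (-0.50 to -0.35, adjusted p = 0.0513 to 0.133). PI16, a marker of adventitial fibroblasts, rose in male cells from 0.28 ± 0.203 to 3.42 ± 2.9 CPM (3.61, SE 0.86, adjusted p = 0.0055 by edgeR). Its female value was 2.05 (SE 0.77, adjusted p = 0.0659). It passed with a replicate block (adjusted p = 0.00824), by DESeq2 (0.0255) and without female plastic 3 (2.34, 0.0476). PI15 and PI16 thus differed in direction in male cells. In the 4 lists together, 0 tested genes were called between the sexes on either surface or for the difference of surface changes by edgeR.

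**Figure D5:**
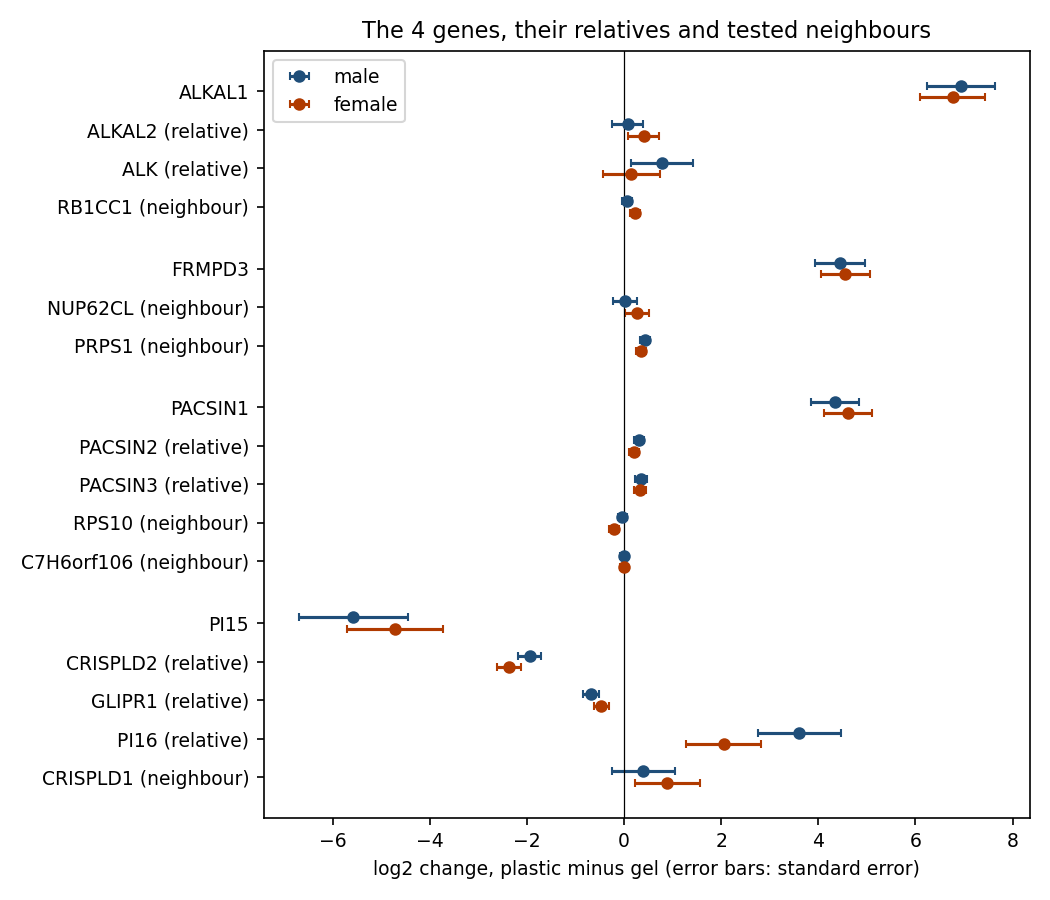
Log2 change, plastic minus gel, with its standard error in male (blue) and female (orange) cells for the 4 genes, their tested close relatives and their tested chromosomal neighbours. All relatives and neighbours except PI16 and CRISPLD2 lie within 1 log2 unit of 0, while the 4 genes lie beyond 4.

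Of the 16 nearest genes of the table, 2 on each side of each gene, 6 were tested and 7 had 0 counts in all 16 libraries. Among the 6 tested, 1 was called in both sexes. Over all tested genes 9.24% rose and 7.27% fell in both sexes, so nothing is read from that count. PRPS1, a nucleotide synthesis enzyme gene 21.8 kb from FRMPD3, was the 1 neighbour called in both sexes, with 0.43 in male (adjusted p = 0.00585 by edgeR) and 0.34 in female cells (adjusted p = 0.0222). Its female call was lost without female gel 1 (0.28, adjusted p = 0.074), female gel 2 (0.32, 0.063) or female plastic 3 (0.25, 0.0868). RB1CC1, an autophagy gene 23.6 kb from ALKAL1, was at 201 to 235 CPM in the group means and did not pass (0.06 and 0.22, adjusted p = 0.731 and 0.16 by edgeR), and ST18, 24.4 kb away on the other side, had 0 counts. NPBWR1, a neuropeptide receptor gene 133 kb from ALKAL1, did not pass the filter. It had 0 counts in all 4 male gel libraries, 5 to 17 in male plastic, 0 to 1 in female gel and 0 to 11 in female plastic.

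Around PACSIN1, the ribosomal protein gene RPS10 (-0.04 and -0.21, adjusted p = 0.809 and 0.132 by edgeR) and C7H6orf106 (0 and -0.01 to the second decimal) did not pass, SPDEF had at most 2 counts, and a long non-coding RNA that overlaps PACSIN1 had 0. CRISPLD1, the CAP gene 116 kb from PI15, did not pass (0.39 and 0.89, adjusted p = 0.704 and 0.369 by edgeR), and the 3 other neighbours of PI15 had 0 counts. On the X chromosome NUP62CL, 322 kb from FRMPD3, did not pass (0.01 and 0.26, adjusted p = 0.99 and 0.491 by edgeR).

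Across the 16 libraries the genes whose log2 CPM followed each of the 4 most closely were largely genes of actin and contraction for ALKAL1 and FRMPD3. For ALKAL1 they included DES (desmin, r = 0.985), WDR47 (0.982) and ACTG2 (enteric smooth muscle actin, 0.981). For FRMPD3 they were WDR1 (an actin disassembly factor, 0.990), TBXA2R (the thromboxane receptor, 0.989), ACTG2 (0.989) and TNS1 (tensin, of focal adhesions, 0.988). For PACSIN1 they were FAM166B (0.990), FAM214A (0.988), KCTD3 (0.986) and FAM107B (0.985). For PI15 they were CTSC (the lysosomal protease cathepsin C, 0.990), APEX1 (a DNA repair enzyme, 0.975), MDFIC (0.973) and HADHB (of fatty acid oxidation, 0.968). These values mostly restate the split between surfaces, and by Spearman's rho 0 of the 4 genes recurred for ALKAL1 and FRMPD3, 1 for PACSIN1 and 2 for PI15.

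With group means removed, the gene most like PI15 was again CTSC (r = 0.961), followed by NOCT, a clock-controlled gene (0.955). For FRMPD3 they were SPEG, a kinase of striated muscle (0.961), and GATA5, a cardiac and endocardial transcription factor (0.939). PACSIN1 deviated with PDE1A, a cyclic nucleotide phosphodiesterase (0.946), and KCTD3 (0.933), and ALKAL1 with the ephrin receptor EPHA4 (0.853) and the cysteine synthesis enzyme CTH (0.852). These are the highest values over all other tested genes, in libraries of 8 cultures, and are given as a description.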

How the data were processed

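Values are raw counts per gene, as deposited by the authors, for 16 polyA libraries. The submitters' processing notes name FastQC 0.11.5 and Trimmomatic 0.36 for the reads, HISAT2 2.1.0 and the build Sscrofa11.1 for alignment, SAMtools 1.3.1, and featureCounts for counting. The version of featureCounts and its strand setting are not given in the sources used here, so sense and antisense reads, or reads shared by paralogs, cannot be told apart. Of 29576 entries, 24 with numbers for names (0.169% of counts) were left out. Positions are from RefSeq on the same build.

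The 14530 genes that passed filterByExpr were tested with edgeR 4.0.16 (R 4.3.3) on 4 group means of 16 libraries (TMM, quasi-likelihood F test, 12 residual degrees of freedom), with calls at a Benjamini-Hochberg adjusted p under 0.05. SE is the size of the change divided by the root of F. Log2 CPM uses a prior count of 2. Other settings tried were DESeq2 1.42.0, voom of limma 3.58.1, RLE size factors, 2 other filters, the replicate block and leaving out each library. The replicate block was fitted with limma-voom for female minus male on gel and on plastic, and with edgeR for all else. The fit was tested on simulated data.

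The series' text counts 4 male and 4 female biological replicates but does not name animals, pooling or whether a number is the same animal on both surfaces, so p-values measure the spread between these samples. Deviations from group means correlated by 0.126 to 0.489 over all 8 same-numbered pairs, all above 0.1, so the numbers were taken to pair the libraries. Within groups every pair of libraries differed beyond sampling noise (chi-square per degree of freedom 9.932 to 81.86 over 24 pairs).

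The 4 genes, the lists and the tests were chosen with earlier results of these data known. The naming rule took the 4 genes, 12 close relatives, up to 4 genes per list and direction called in both sexes, the 2 nearest genes on each side, and the most correlated genes. NPBWR1 and other untested neighbours are given by counts. Some genes that the rule or the marker lists gave are not reported here.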

Additional observations from a re-analysis of the deposited data

Results flagged for a closer look

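In male plastic 1, FRMPD3 had 34.1 CPM against 23.9 to 24.6 CPM in the other 3 male plastic libraries. Its gap to the nearest of them was 0.931 of the range of the group, above Dixon's 95% critical value for 4 samples. Of 48 groups checked (the 4 genes and 8 tested relatives in 4 groups each) this was the only 1 past that value, where chance gives about 5%.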

How the results depend on the processing

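No sex difference or difference of surface changes of the 4 genes passed under any alternative run, but uncalled values changed sign. By limma-voom PACSIN1 on gel was 0.33, with or without the replicate block. By limma-voom without the block, the difference of changes was -0.43 for PACSIN1 and -0.01 for FRMPD3. With only cultures male 1 to 3 and female 2 and 3, added after the data were seen, FRMPD3 was 0.28 on gel and 0.50 on plastic (female minus male), PACSIN1 0.10 on plastic and PI15 -0.25 on gel, ALKAL2 was -0.02 in male cells, C7H6orf106 0.02 in female cells (0.01 with RLE size factors and by DESeq2), 1968 genes were called between surfaces in female cells and 2 of the ALK and LTK list, and the calls of PACSIN2 (adjusted p = 0.0621 by edgeR) and GRB2 (0.0669) in male cells, PACSIN3 in both sexes (0.12 and 0.139), and PTN (0.129) and GRB2 (0.175) in female cells ended. That list had 3 calls in male cells without a filter and 8 with the replicate block, which ended the male GRB2 and female PACSIN3 calls and gave the female PI16 call among the genes named. Called genes between surfaces numbered 4319 in male and 4011 in female cells with that block, against 3748 and 3476. The ALKAL1 relation between surfaces was r = 0.918 and that of PACSIN1 0.0846 without the 2 pairs farthest from the median on gel.

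Leaving out 1 library at a time, female minus male values on gel ran from -0.49 to 1.66 for ALKAL1, -0.47 to 0.40 for FRMPD3, -0.75 to 0.22 for PACSIN1 and -0.22 to 2.06 for PI15. On plastic they ran from -0.26 to 0.44 for ALKAL1, -0.37 to 0.23 for FRMPD3, -0.17 to 0.03 for PACSIN1 and 0.73 to 2.12 for PI15. Differences of changes ran from -1.53 to 0.62, -0.42 to 0.46, -0.31 to 0.66 and -0.31 to 1.96 for ALKAL1, FRMPD3, PACSIN1 and PI15. Male surface changes ran from 6.49 to 8.30 for ALKAL1 and from -5.90 to -4.42 for PI15. The ALK and LTK list had 3 to 6 calls in male cells. The relation between surfaces ran from 0.953 to 0.979 for ALKAL1 and from -0.143 to 0.0545 for PACSIN1, 1 pair left out. Uncalled neighbours and relatives ran from -0.06 to 0.20 (ALKAL2), -0.02 to 0.17 (RB1CC1), -0.10 to 0.08 (NUP62CL) and -0.09 to 0.02 (RPS10) in male cells, and from -0.31 to 0.42 (ALK) and -0.06 to 0.02 (C7H6orf106) in female cells. The causes were not tested. Low counts limit the precision of ALKAL1 and PACSIN1 on gel and of PI15 on plastic.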
